A study of Mus musculus with 19 samples.

Results

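The mitochondrial genome of the mouse encodes 13 proteins, and 5 of these genes entered the data: mt-Nd1, mt-Co1, mt-Cytb, mt-Nd6 and mt-Nd5. They were taken as every gene whose name starts with mt- in the deposited lists of translated open reading frames (ORFs), and they are 5 of 7384 genes in those lists. The other 8 were not analysed here. Membership therefore rests on an ORF call in at least 1 library. The AT2 lists alone brought in mt-Nd1 and mt-Cytb, both through AT2 ORF library 1 only. The LUAD lists alone brought in mt-Nd5, and both kinds of list held mt-Co1 and mt-Nd6.

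Mitochondria keep a small genome that is transcribed from both strands into long precursors, which are cut into separate mRNAs and translated by ribosomes of their own inside the organelle. All of the proteins made there are membrane subunits of the respiratory chain or of ATP synthase, and they are assembled with a larger number of subunits that are encoded in the nucleus, made in the cytosol and imported. The mitochondrial ribosome has its own proteins, encoded in the nucleus by the Mrpl and Mrps genes, and reads a genetic code that differs from the nuclear code in a few codons, among them UGA, read there as tryptophan.

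LUAD organoids, grown from lung adenocarcinoma, were compared with AT2 organoids, grown from alveolar type 2 cells, which line the air sacs of the lung, secrete surfactant and renew the alveolar surface. Both came from C57BL/6 mice. Both were plated for 48 hours and received 100 µM cycloheximide, an inhibitor of elongation on cytosolic ribosomes, for 5 min before harvest. The ORF libraries of the tumour organoids are titled KP in place of LUAD, and the labels give no further allele, age or number of animals. Footprints, the RNA fragments that ribosomes protect, were collected with RiboLace, which pulls down ribosomes in the course of translation. There were 4 LUAD and 3 AT2 footprint libraries, 4 LUAD and 3 AT2 RNA libraries, and 3 LUAD and 2 AT2 libraries with an ORF list. The protocol text given for the RNA libraries is the same as for the footprint libraries, so the sources used here do not say how their RNA was selected.

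Depth was 3.03 to 14.2 M estimated counts in footprints and 4.12 to 33.2 M in RNA, of which 65.0% to 70.0% fell on transcripts that the ORF lists pair with a gene. RNA of Trp53, which encodes the tumour suppressor p53, stood at 0 to 4.07 CPM (counts scaled to a common library size) in LUAD and 123 to 238 CPM in AT2 libraries. Of 12 markers of AT2 cells 8 were paired, with a summed RNA level of 1233 to 1295 CPM in LUAD and 2045 to 3833 CPM in AT2 organoids, and the sodium-phosphate transporter Slc34a2 was at 0 in the RNA of both. Of 6 fibroblast markers 1 was paired, at 198 to 412 CPM in LUAD and 0 to 1.55 CPM in AT2 RNA, and of 6 leukocyte markers 2 were paired, at 150 to 200.3 CPM in LUAD and 6.83 to 19.5 CPM in AT2 RNA. No marker of club, ciliated, basal or endothelial cells was paired. What part these markers had in any difference below was not tested. Libraries were also split into 2 sets within each tissue, which the labels do not name. In footprints set 1 held LUAD libraries 1 and 2 and AT2 library 1, and set 2 held LUAD libraries 3 and 4 and AT2 libraries 2 and 3. In RNA set 1 held LUAD libraries 1 and 2 and AT2 libraries 1 and 2, and set 2 held LUAD libraries 3 and 4 and AT2 library 3. The sets came from nuclear genes alone, by the sign of their first component. It held 61.3% of the variance within tissues in footprints and 53.7% in RNA. As levels were centred within each tissue, this rule makes 2 sets in any data. AT2 library 1 stood furthest out in footprints (-0.76), and AT2 library 3 in RNA (0.78). LUAD libraries ran from -0.185 to 0.180 in footprints and from -0.151 to 0.147 in RNA. The tissue differences of the 5 genes are also given below within each set.

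By estimated counts, the mitochondrially encoded genes had very abundant RNA and few footprints. Together the 5 genes took 1.92%, 1.99%, 3.35% and 2.63% of the paired RNA counts in the LUAD libraries and 3.07%, 2.92% and 4.30% in the AT2 libraries. Of the paired footprint counts they took 0.131%, 0.194%, 0.0532% and 0.0560% in the LUAD libraries and 0.243%, 0.0445% and 0.0286% in the AT2 libraries. Every RNA library held a larger share than any footprint library. In bulk samples, fewer cells of a type and less RNA per cell cannot be told apart.

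mt-Nd1 encodes a subunit of complex I, the NADH dehydrogenase that starts the respiratory chain, and lies on chromosome M at 2751 to 3707 on the plus strand (mm10; ENSMUSG00000064341.1). Its coding sequence of 957 bases is the whole transcript, with no untranslated region in the annotation, which also holds for the other 4 genes. Its RNA ranked 10 to 12 among all paired genes in LUAD and 4 in each AT2 library by TPM, a level per length. The RNA level was 5030, 5407, 7590 and 6206 CPM in the LUAD libraries, against 8489, 7914 and 11051 CPM in the AT2 libraries. Every LUAD library was below every AT2 library. The footprint level was 60.4, 86.9, 17.2 and 19.5 CPM in the LUAD libraries, against 358, 9.92 and 7.18 CPM in the AT2 libraries. The AT2 footprint values spread 49.8-fold and enclosed those of LUAD. AT2 footprint libraries 2 and 3 rested on 24 and 19 estimated counts.

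mt-Co1 (chromosome M, 5328 to 6872, plus strand; ENSMUSG00000064351.1) encodes the catalytic subunit of complex IV, cytochrome c oxidase, which passes electrons to oxygen. Its RNA level was 7075, 7551, 14099 and 10761 CPM in LUAD libraries and 11350, 11147 and 19989 CPM in AT2 libraries. LUAD library 3 overlapped with the AT2 range, and AT2 library 3 was the highest of all. Footprints of mt-Co1 stood at 214, 271, 57.0 and 61.4 CPM in LUAD libraries and 966, 123 and 77.1 CPM in AT2 libraries, with overlap between the groups. Some estimated counts of mt-Co1 were not whole, in 3 of 7 RNA libraries and 1 of 7 footprint libraries, which shows that reads there were shared with another transcript. Its level is uncertain to that extent, and so are those of mt-Nd5 (3 of 7 footprint libraries) and mt-Cytb (1 of 7 footprint libraries).

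mt-Cytb (chromosome M, 14145 to 15288, plus strand; ENSMUSG00000064370.1) encodes cytochrome b, the core subunit of complex III. Its RNA level was 4273, 4312, 9158 and 6821 CPM in LUAD libraries and 6800.2, 6554 and 9195 CPM in AT2 libraries. LUAD libraries 1 and 2 lay below all AT2 libraries, and LUAD libraries 3 and 4 lay within their range. Footprints of mt-Cytb stood at 101, 143, 31.6 and 29.8 CPM in LUAD libraries and 543, 36.8 and 23.8 CPM in AT2 libraries, so that AT2 library 1 was the highest and AT2 library 3 the lowest of the 7.

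mt-Nd6 and mt-Nd5 encode further subunits of complex I and lie on opposite strands, mt-Nd5 at 11742 to 13565 on the plus strand (ENSMUSG00000064367.1) and mt-Nd6 at 13552 to 14070 on the minus strand (ENSMUSG00000064368.1). Their annotated ends overlap by 14 bases. mt-Nd6 is the only protein that the mouse mitochondrial genome encodes on that strand. The sources used here do not say whether the counting used strand, so reads from the overlap, and any antisense RNA across mt-Nd6, cannot be assigned to a strand. mt-Nd6 RNA stood at 795, 746, 1695 and 1436 CPM in LUAD libraries and 1511, 1332 and 1488 CPM in AT2 libraries. Its footprints were at 117, 222, 74.6 and 79.3 CPM in LUAD libraries and 476, 121 and 68.8 CPM in AT2 libraries. In both assays the groups overlapped, and LUAD library 3 held the most mt-Nd6 RNA. mt-Nd5 RNA stood at 920.0, 781, 2979 and 2194 CPM in LUAD libraries and 2180, 1915 and 3043 CPM in AT2 libraries. LUAD libraries 1 and 2 stood apart, below the other 5 libraries. The footprint level of mt-Nd5 was 604, 886, 285 and 307 CPM in LUAD libraries and 2172, 158 and 108 CPM in AT2 libraries. AT2 library 1 was above all LUAD libraries, and AT2 libraries 2 and 3 were below them.

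**Figure D1:**
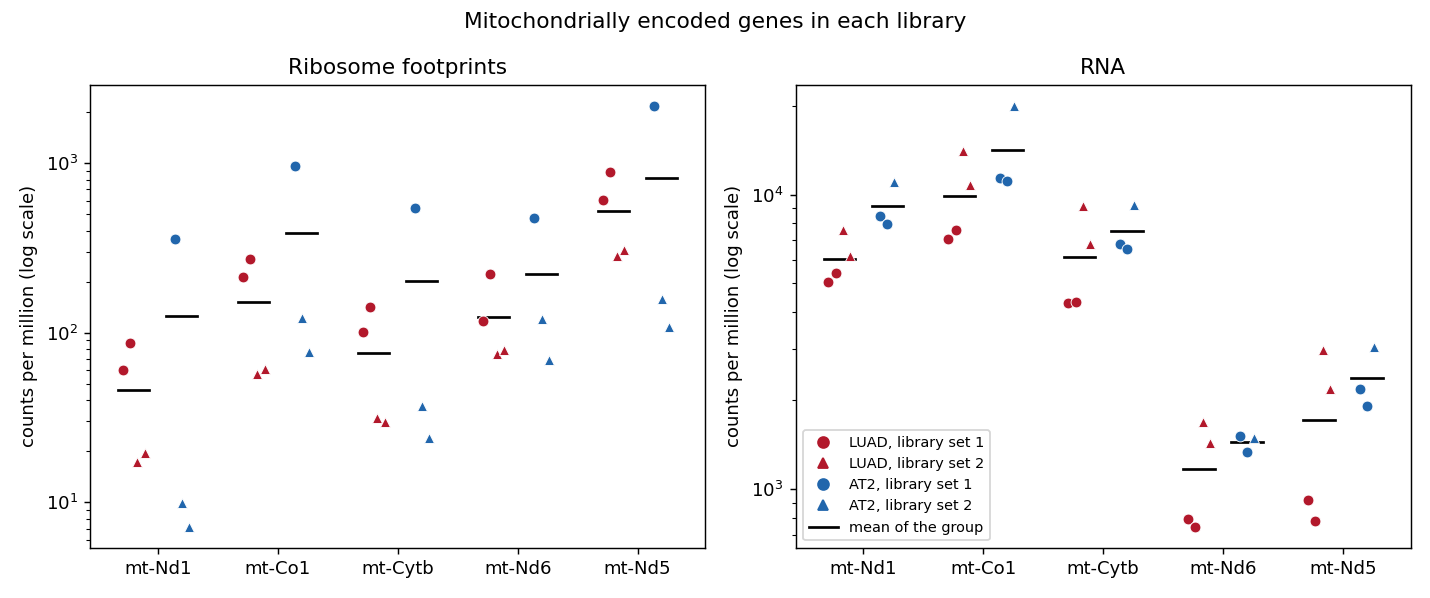
Counts scaled to a common library size (CPM, log scale) of the 5 genes in each library, footprints left and RNA right, with LUAD (red) before AT2 (blue); circles are library set 1, triangles set 2, and bars are group means. In footprints the AT2 library of set 1 lies above all LUAD libraries for every gene, while in RNA the spread within a group is at most 3.82-fold.

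Per length, the order of the genes differed between the assays. By TPM, mt-Nd1 had the highest mean RNA level and mt-Nd5 the lowest, at 4890 ± 406 and 642 ± 331 TPM in LUAD (SD, n = 4) and 7907 ± 315 and 985 ± 95.03 TPM in AT2 organoids (SD, n = 3). In between came mt-Co1 (4544 ± 984 TPM in LUAD, 6953 ± 1258 TPM in AT2), mt-Cytb (3952 ± 1055 TPM in LUAD, 5266 ± 177 TPM in AT2) and mt-Nd6 (2026 ± 588 TPM in LUAD, 2765 ± 391 TPM in AT2). The levels of mt-Nd1 and mt-Co1, and in LUAD also mt-Cytb, lay within the spread of their neighbours, while mt-Nd6 and mt-Nd5 lay below the ranges of the 3 above. In footprints mt-Nd5 and mt-Nd6 were highest and mt-Nd1 lowest. mt-Nd5 averaged 237 ± 149 TPM in LUAD and 136 ± 147 TPM in AT2 footprints, mt-Nd6 204 ± 132 TPM in LUAD and 172 ± 75.8 TPM in AT2, and mt-Nd1 41.0 ± 32.9 TPM in LUAD and 36.7 ± 52.5 TPM in AT2. In LUAD footprints the ranges of mt-Nd5 (115 to 429 TPM) and mt-Nd6 (110 to 393 TPM) lay wholly above that of mt-Nd1 (13.4 to 81.3 TPM), while in AT2 footprints the ranges of the 3 genes overlapped. The ratio of mt-Nd5 to mt-Nd1 counts was 10.01, 10.2, 16.6 and 15.8 in LUAD footprints and 6.07, 15.96 and 15 in AT2 footprints, against 0.183, 0.144, 0.392 and 0.354 in LUAD RNA and 0.257, 0.242 and 0.275 in AT2 RNA. mt-Nd5 thus had fewer counts than mt-Nd1 in all 7 RNA libraries and more in all 7 footprint libraries. It took 58.3% ± 3.69 of the mitochondrially encoded footprint counts in LUAD and 40.4% ± 6.78 in AT2 organoids, while it took 6.41% ± 2.10 of the RNA counts in LUAD and 6.87% ± 0.284 in AT2.

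Footprints were next set against RNA within each tissue. The measure is the log2 ratio of footprint CPM to RNA CPM, on a scale where the median nuclear gene is close to 0. In LUAD organoids the difference was -7.02 ± 1.13 for mt-Nd1, -6.31 ± 0.97 for mt-Cytb, -6.01 ± 0.85 for mt-Co1 and -3.22 ± 0.55 for mt-Nd6 (log2 fold change ± SE, n = 4 footprint and 4 RNA libraries). These 4 passed edgeR's quasi-likelihood test with Benjamini-Hochberg adjusted p of 0.000132, 9.08e-05, 4.66e-05 and 0.000230. mt-Nd5 stood at -1.70 ± 0.78 and did not pass (adjusted p = 0.0777). In AT2 organoids the difference was -6.31 ± 1.27 for mt-Nd1, -5.32 ± 1.07 for mt-Cytb, -5.27 ± 0.95 for mt-Co1 and -2.78 ± 0.63 for mt-Nd6 (n = 3 footprint and 3 RNA libraries). Their adjusted p were 0.00136, 0.00140, 0.000645 and 0.00300, while mt-Nd5, at -1.63 ± 0.90, did not pass (adjusted p = 0.162). In all, 4 of 5 genes passed in each tissue, all with fewer footprints than RNA. The share of all genes tested that passed was 57.5% in LUAD, with 29% higher and 28.5% lower in footprints than in RNA, and 42.6% in AT2, with 21.5% higher and 21.1% lower, so a call by itself is common in this contrast. The calls of mt-Nd1, mt-Co1, mt-Cytb and mt-Nd6 held in every alternative that gave a p, while mt-Nd5 passed in 6 of 24 alternatives in LUAD and 5 in AT2. Leaving out AT2 footprint library 1 lowered the AT2 values to -10.13 for mt-Nd1, -8.02 for mt-Cytb, -7.21 for mt-Co1 and -4.00 for mt-Nd6, and mt-Nd5 then passed in AT2, at -4.23 (adjusted p = 0.000394), and in LUAD, at -1.76 (adjusted p = 0.00471). mt-Nd5 also passed in LUAD without AT2 footprint library 3 (adjusted p = 0.0434).

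The size of the difference set 3 of the genes at the low end of all genes. mt-Nd1, mt-Cytb and mt-Co1 had a lower log2 difference than all but 0.452%, 0.622% and 0.692% of 7078 nuclear genes in LUAD, and all but 1.22%, 1.43% and 1.46% in AT2 organoids. mt-Nd6 was undercut by 2.83% of nuclear genes in LUAD and 4.15% in AT2, and mt-Nd5 by 12.3% in LUAD and 11.2% in AT2. Genes with little RNA can reach low ratios through few counts, so nuclear genes with at least as much RNA as the least abundant member, mt-Nd6, were taken by themselves. In LUAD these were 98 genes with a median log2 ratio of -1.06, the lowest being the metallothionein gene Mt2 at -5.54. In AT2 these were 87 genes with a median of -1.09, and Mt2 was again lowest, at -5.22. None of the 98 or of the 87 lay below mt-Nd1, mt-Cytb or mt-Co1. Below mt-Nd6 lay 8 in LUAD and 13 in AT2, and below mt-Nd5 lay 31 in LUAD and 25 in AT2.

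**Figure D2:**
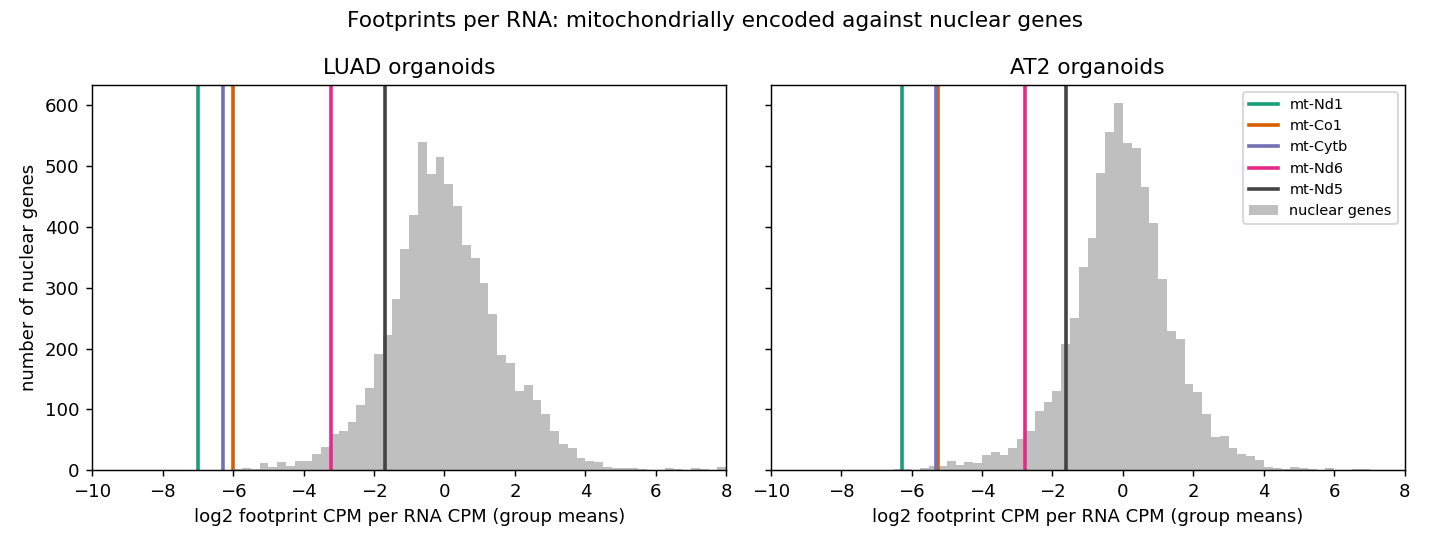
Histogram of the log2 ratio of mean footprint CPM to mean RNA CPM over nuclear genes (gray; number of genes on the vertical axis) in LUAD organoids, left, and AT2 organoids, right, with a coloured line for each mitochondrially encoded gene. mt-Nd1, mt-Cytb and mt-Co1 lie in the low tail of the histogram, at -7.00, -6.30 and -6.00 in LUAD and at -6.26, -5.29 and -5.26 in AT2, and mt-Nd5 lies within it, at -1.69 in LUAD and -1.62 in AT2.

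The same ratio was read in each footprint library against the mean RNA level of its tissue. For mt-Nd1 it was -6.62, -6.09, -8.39 and -8.21 in the LUAD libraries, against -4.75, -9.82 and -10.26 in the AT2 libraries. Relative to the median nuclear gene, this is 91.0-, 63.9-, 310.0- and 274-fold lower in LUAD and 23.8-, 856- and 1156-fold lower in AT2. AT2 library 1 was the least low of the 7 and AT2 libraries 2 and 3 the lowest. For mt-Co1 the ratio was -5.51, -5.16, -7.39 and -7.28 in LUAD libraries and -3.95, -6.89 and -7.55 in AT2 libraries. For mt-Cytb it was -5.90, -5.40, -7.55 and -7.63 in LUAD libraries and -3.87, -7.70 and -8.31 in AT2 libraries. These 3 genes lay below the first percentile of nuclear genes in 4 of 4 LUAD libraries and in AT2 libraries 2 and 3, but not in AT2 library 1, where 1.93% to 3.05% of nuclear genes were lower. For mt-Nd6 the ratio was -3.30, -2.37, -3.93 and -3.84 in LUAD libraries and -1.68, -3.62 and -4.42 in AT2 libraries. For mt-Nd5 it was -1.49, -0.93, -2.55 and -2.45 in LUAD libraries and -0.21, -3.95 and -4.50 in AT2 libraries. In AT2 library 1 49.4% of nuclear genes were below mt-Nd5, so there it sat at the middle of the nuclear range. From high to low, the order was mt-Nd5, mt-Nd6, mt-Co1, mt-Cytb, mt-Nd1 in 4 of 4 LUAD libraries. AT2 library 1 differed from this only in the order of mt-Co1 and mt-Cytb, and AT2 libraries 2 and 3 only in the order of mt-Nd5 and mt-Nd6. mt-Nd1 was lowest in all 7.

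RNA of the 5 genes was then compared between the tissues. mt-Nd1 RNA was lower in LUAD, at 6058 ± 1133 CPM against 9151 ± 1670 CPM in AT2 organoids (SD, n = 4 and 3), a log2 fold change of -0.60 ± 0.19 (edgeR adjusted p = 0.0407). The other 4 did not pass: mt-Co1 at -0.52 ± 0.30 (adjusted p = 0.209), mt-Nd5 at -0.47 ± 0.46 (0.449), mt-Nd6 at -0.31 ± 0.30 (0.449) and mt-Cytb at -0.29 ± 0.29 (0.460). With 1 of 5 past the test beside 37% of all genes tested, with 19% higher and 18% lower, the count is no larger than that of genes at large. Scaling on all transcripts in place of paired genes changed the calls among all genes from 1322 higher and 1250 lower to 1961 higher and 828 lower. The call of mt-Nd1 was near the threshold. It was lost on leaving out AT2 RNA library 1, 2 or 3 (adjusted p = 0.0814, 0.0612 and 0.0765) or LUAD RNA library 1, 2 or 4 (0.0919, 0.0965 and 0.0861), and when libraries were scaled on all transcripts, where its log2 fold change was -0.36 (adjusted p = 0.104) and the median of all genes stood at 0.27 in place of 0.04. With the replicate number as a block, mt-Co1 also passed, at -0.58 (adjusted p = 0.00845).

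The RNA difference varied with the library set. Mean RNA of set 2 stood above that of set 1 in both tissues for all 5 genes, with set 1 at 0.329 to 0.756 of set 2 in LUAD and 0.563 to 0.956 in AT2. In set 1 alone all 5 genes were lower in LUAD and passed, the log2 fold change of mt-Nd5 being -1.27. Calls were common there, with 4050 of 6927 genes past the test, 1965 of them lower. In set 2 alone, with 2 LUAD libraries and 1 AT2 library that is assumed to vary like them, mt-Nd6 stood at 0.046. The other genes stayed lower in LUAD there. Mean RNA in LUAD against the AT2 library of set 2 was 6898 against 11051 CPM for mt-Nd1 and 12430 against 19989 CPM for mt-Co1. It was 7989 against 9195 CPM for mt-Cytb and 2586 against 3043 CPM for mt-Nd5. What the sets reflect was not tested.

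No footprint difference between the tissues passed the test. The log2 fold change, LUAD over AT2, was -1.41 ± 1.24 for mt-Nd1 (edgeR adjusted p = 0.468), -1.36 ± 0.92 for mt-Co1 (0.342), -1.38 ± 1.06 for mt-Cytb (0.403), -0.83 ± 0.66 for mt-Nd6 (0.420) and -0.64 ± 0.97 for mt-Nd5 (0.684). Of all genes tested 21.3% passed, 9.47% higher and 11.8% lower (645 and 803 genes, or 897 and 411 when scaled on all transcripts), and 0 of the 5 had an unadjusted p under 0.05 in edgeR or an adjusted p under 0.05 in DESeq2 or in limma. A 95% interval of mt-Nd1 from the SE and the normal distribution, -3.84 to 1.03, spans both directions, so these libraries do not show that the tissues are alike. It makes no allowance for the small number of libraries, so it is too narrow. The sign was not stable. Without AT2 footprint library 1 the log2 fold changes turned to 2.41, 0.58, 1.31, 0.37 and 1.956 in the same order of genes, and mt-Nd5 passed as higher in LUAD (adjusted p = 0.0282). On the TPM scale mt-Nd1, mt-Cytb, mt-Nd6 and mt-Nd5 stood above 0 (0.88, 0.28, 0.15 and 1.13), and with scaling on library size alone mt-Nd5 did (0.37). The median of all genes also moved, from -0.02 to 0.61 on the TPM scale and 0.47 with library size alone. Beside these medians mt-Cytb and mt-Nd6 on the TPM scale, and mt-Nd5 with library size alone, were lower.

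Within the library sets the footprint differences of mt-Nd1 and mt-Nd5 went in opposite directions, and those of mt-Co1 and mt-Nd6 were below 0 in both. Set 1 footprint levels exceeded those of set 2 by 2.20- to 4.09-fold in LUAD and by 5.02- to 41.8-fold in AT2, the largest being mt-Nd1 in AT2. Set 1 alone holds 2 LUAD libraries and only AT2 library 1, the AT2 footprint library that stands apart. That AT2 library is here assumed to vary like the LUAD libraries. In this set mt-Nd1, mt-Co1, mt-Cytb and mt-Nd5 were lower in LUAD, at -2.21, -1.94, -2.09 and -1.495. In set 2 alone mt-Nd5 passed as higher in LUAD, at 1.16 (adjusted p = 0.00800), and mt-Nd1 stood at 1.10 (adjusted p = 0.0535) and mt-Cytb at 0.022, while mt-Co1 stood at -0.75 (adjusted p = 0.0570). Of all 6842 genes tested in set 2, 1395 were higher and 1460 lower. mt-Nd6 averaged 77.0 CPM in LUAD and 94.8 CPM in AT2 footprints of set 2, where the ranges overlapped. With the set as a term over all libraries, mt-Co1 passed as lower in LUAD, at -1.29 (adjusted p = 0.00732), beside 1458 of 6814 genes tested that were lower. In RNA set 2 was the higher, but the sets were made separately in each assay. AT2 library 2 lies in set 1 in RNA and in set 2 in footprints, so a set number does not stand for the same libraries. Footprints per RNA within a set therefore join unlike AT2 libraries. As the sets come from these same libraries, calls within them are no independent support.

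**Figure D3:**
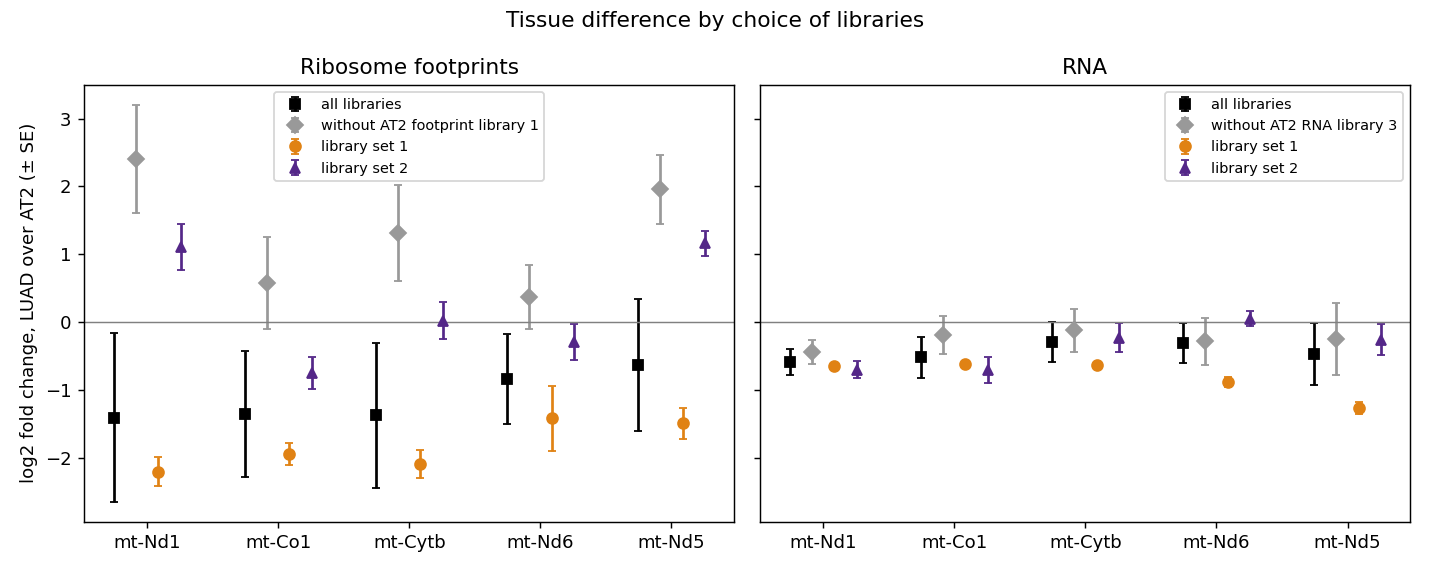
Log2 fold change, LUAD over AT2 (± SE), of the 5 genes in footprints, left, and RNA, right, from all libraries (black), without the AT2 library that stands apart (gray) and from each library set alone (orange and purple). In footprints the values of mt-Nd1 and mt-Nd5 lie below 0 in set 1 and above 0 in set 2, while in RNA the values lie at or below 0 except mt-Nd6 in set 2.

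Footprints per RNA, the difference between the tissues in footprints relative to that in RNA, passed for none of the 5 genes. The log2 values were -0.71 ± 1.34 for mt-Nd1, -0.74 ± 1.05 for mt-Co1, -0.99 ± 1.19 for mt-Cytb, -0.43 ± 0.78 for mt-Nd6 and -0.07 ± 1.16 for mt-Nd5, with edgeR adjusted p from 0.766 to 0.995. Of all genes tested 0.72% passed, 0.282% higher and 0.438% lower, and 0 of the 5 had an unadjusted p under 0.05 in edgeR or passed in DESeq2, which gave no p for mt-Nd1, or in limma. The 95% interval of mt-Nd1, from the normal distribution and so also too narrow, was -3.34 to 1.92. Without AT2 footprint library 1 its value was 3.05 (adjusted p = 0.0418).

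The ORF lists count footprint P-sites, the position in the ribosome that holds the growing peptide, by reading frame. They held 9 ORFs in the 5 genes, 8 of them distinct, of 24 to 187 codons. None covered a whole coding sequence, and the largest share of one was 49.1%, in an ORF of 85 codons in mt-Nd6. In mt-Nd1, mt-Co1, mt-Cytb and mt-Nd5 all 6 ORFs were classed as internal and lay out of frame with the coding sequence. In mt-Nd6 all 3 were classed as annotated and lay in its frame. In AT2 ORF library 1 the mitochondrially encoded ORFs held 1.94% of the P-sites of listed ORFs, against 0.00350% to 0.0361% in the other ORF libraries. The lists were made from these same P-sites, with the authors' p up to 0.05, so the shares below are a description of the listed ORFs. The sources used here do not say whether the ORF caller read the mitochondrial genetic code, and its part in the ORF boundaries was not tested.

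The ORF of 25 codons in mt-Nd6, at 13621 to 13698 on the minus strand, was the only 1 in 2 lists. In LUAD ORF library 2 its 3 frames held 92, 37 and 33 P-sites, an in-frame share of 56.8% (95% exact binomial interval 48.8% to 64.5%, counting error only), against 41, 33 and 11 P-sites in AT2 ORF library 2, a share of 48.2% (37.3% to 59.3%). The authors' p for it was 0.000486 in the LUAD list, the lowest of the 9, and 0.0394 in the AT2 list. A longer mt-Nd6 ORF of 85 codons, which begins at the annotated start, had a share of 39.8% (32.6% to 47.3%) of 181 P-sites in LUAD ORF library 3. Among ORFs classed as annotated in nuclear genes with at least 40 P-sites, the median in-frame share was 46.9%, 45.7% and 46.8% in these 3 libraries, LUAD 2, LUAD 3 and AT2 2. The 25-codon ORF was above 93.2% of them in LUAD and 59.0% in AT2, and the 85-codon ORF above 7.69%.

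The internal ORFs differed widely in their in-frame share. Nuclear ORFs classed as internal with at least 40 P-sites had a median share of 54.7% in LUAD ORF library 1 (330 ORFs). The median was 48.3% in LUAD ORF library 3 (15 ORFs) and 51.1% in AT2 ORF library 1 (13 ORFs). In mt-Nd5, an ORF of 25 codons at 12854 to 12931 had an in-frame share of 70.0% (53.5% to 83.4%), from 40 P-sites in LUAD ORF library 3. In mt-Co1, LUAD ORF library 1 listed ORFs at 5702 to 5815 (55.2% of 58 P-sites) and at 6326 to 6418 (65.3% of 98 P-sites), against 1 at 6149 to 6292 (43.5% of 69 P-sites) in AT2 ORF library 1. The mt-Co1 ORFs of LUAD were above 52.4% and 85.8% of the nuclear internal ORFs of that library, and the mt-Co1 ORF of AT2 above 23.1%. No position was shared between the tissues. AT2 ORF library 1 also listed an ORF of 187 codons in mt-Cytb, at 14231 to 14794, with 542, 520 and 492 P-sites by frame, a share of 34.9% (32.5% to 37.3%). The ORF of mt-Nd1 in the same library, at 3220 to 3294, had a share of 37.9% (33.3% to 42.7%) of 430 P-sites. These 2 ORFs held more P-sites than the estimated counts of their whole genes in any AT2 footprint library. For mt-Cytb these were 1554 P-sites against at most 610 counts, and for mt-Nd1 430 against at most 402. Whether same-numbered ORF and footprint libraries correspond, and why the counts differ, was not tested. An even spread over 3 frames would give 33.3%, which lies within the intervals of these 2 ORFs and also of the mt-Co1 ORF of AT2 ORF library 1 (31.6% to 56.0%) and the mt-Nd6 ORF of 85 codons (32.6% to 47.3%).

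**Figure D4:**
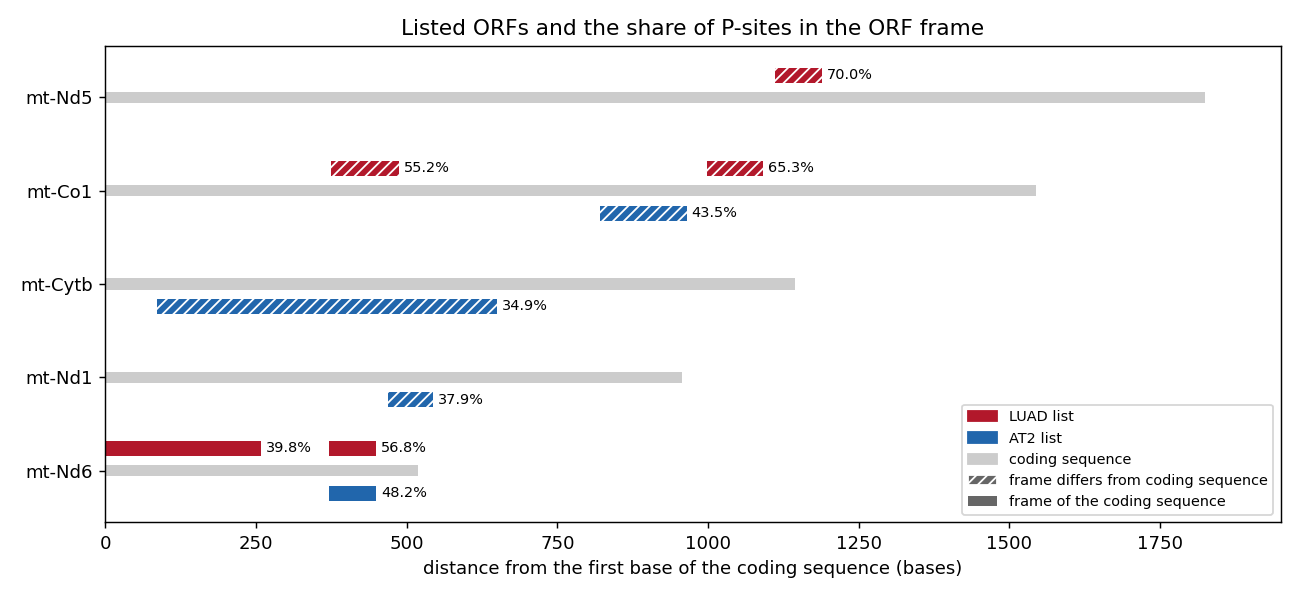
Listed ORFs along each coding sequence (gray; distance from its first base on the horizontal axis), from LUAD lists above (red) and AT2 lists below (blue), with the share of P-sites in the ORF frame beside each; hatched ORFs lie out of the frame of the coding sequence. The 3 solid ORFs are all in mt-Nd6, and the shares run from 34.9% to 70.0%.

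Nuclear genes of the same pathway were set beside these genes. Of 62 tested nuclear subunits of oxidative phosphorylation, 0 rose and 4 fell in LUAD RNA, where 19% of all genes tested were higher and 18% lower, with a median log2 fold change of 0.12 beside 0.04 for all nuclear genes. The RNA counts depended on the scaling, with 8 higher and 2 lower when scaled on all transcripts (median 0.35 beside 0.27 for all genes), where Uqcrh, of complex III, and Cox6c, of complex IV, were lost (adjusted p = 0.0989 and 0.122). In footprints 0 of 58 rose and 10 fell, 7 of them in complex I, with a median of -0.28 beside -0.02, where 9.47% of all genes tested were higher and 11.8% lower. Scaled on all transcripts 3 fell, with a median of 0.014 beside 0.35 for all genes, on the TPM scale 0 fell, and 4 fell on leaving out any footprint library other than AT2 library 1, without which 19 fell. The 3 outside complex I, Sdhb of complex II and Cox6a1 and Cox6c of complex IV, were lost when scaled on all transcripts (adjusted p = 0.356, 0.287 and 0.378). Ndufb6, an accessory subunit of complex I, fell in RNA to 57.9 ± 13.3 CPM in LUAD, against 131 ± 30.4 CPM in AT2 (log2 fold change -1.18, edgeR adjusted p = 0.00631), and in footprints to 34.9 ± 4.30 CPM against 108 ± 29.4 CPM in AT2 (-1.64, adjusted p = 0.00278). Ndufv3, also of complex I, fell in RNA (-0.99, adjusted p = 0.00132) and in footprints (-1.46, adjusted p = 0.000586). The footprint calls of both were lost on the TPM scale, with adjusted p of 0.285 and 0.319. In footprints over RNA within a tissue, where 57.5% of all genes passed in LUAD and 42.6% in AT2, more of these subunits were lower than higher. Within LUAD 2 were higher and 37 lower of 62 (median -0.85), where 29% of all genes were higher and 28.5% lower. Within AT2 2 were higher and 26 lower (median -0.58), where 21.5% of all genes were higher and 21.1% lower, beside medians of -0.04 in LUAD and 0.01 in AT2 for all nuclear genes.

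Of 54 tested proteins of the mitochondrial ribosome, 10 rose and 0 fell in LUAD RNA (median 0.45), beside the 19% of all genes that were higher and the 18% that were lower. The 10 became 23 when scaled on all transcripts and 2 to 25 on leaving out an RNA library, the lowest without AT2 library 1 or 2 and the highest without AT2 library 3. Among the 10 was Mrps9, of the small subunit, at 105 ± 7.47 CPM in LUAD and 44.4 ± 7.02 CPM in AT2 (log2 fold change 1.25, edgeR adjusted p = 0.00119). In footprints 1 of 53 rose and 2 fell (median -0.13), beside 9.47% of all genes higher and 11.8% lower. Scaled on all transcripts 2 rose and 1 fell (median 0.18 beside 0.35 for all genes). On the TPM scale 3 rose and 0 fell (median 0.55 beside 0.61). Within LUAD 0 were higher and 42 lower of 55 in footprints over RNA (median -1.497), and within AT2 1 was higher and 32 lower (median -1.17), beside the shares of all genes given above. The list of factors of mitochondrial gene expression also holds regulators of nuclear genes, such as Gabpa and Myc. Of its 26 tested factors 10 rose and 2 fell in LUAD RNA (median 0.58), beside 19% and 18% of all genes, and 15 rose and 1 fell when scaled on all transcripts. In footprints 3 of 25 rose, Gabpa and Myc among them, and 1 fell (median 0.15), beside 9.47% and 11.8% of all genes. Polg, the mitochondrial DNA polymerase, fell in RNA to 12.5 ± 3.73 CPM in LUAD, against 35.3 ± 8.46 CPM in AT2 (-1.502, adjusted p = 0.00684), a call lost in library set 2 alone (adjusted p = 0.148). Gabpa, a transcription factor of nuclear genes for mitochondrial proteins, rose in footprints to 133 ± 7.36 CPM in LUAD, against 45.6 ± 7.50 CPM in AT2 (1.56, adjusted p = 0.00115). Myc, a broad growth regulator, rose in footprints to 442 ± 34.9 CPM in LUAD, against 167 ± 64.4 CPM in AT2 (1.40, adjusted p = 0.0120). Fastkd3, of a family that acts on mitochondrial RNA, had 1135 RNA counts over the LUAD libraries and 1 over the AT2 libraries (adjusted p = 0.000756), and 266 footprint counts over the LUAD libraries and 42 over the AT2 libraries. These sums are not scaled for depth. Scaled, its footprints were alike, at 7.31 ± 4.015 CPM in LUAD and 7.52 ± 2.75 CPM in AT2. Fastkd3 was the only member of these lists whose footprints per RNA passed, as lower in LUAD (adjusted p = 0.0172). The call held in 21 of 24 alternatives. Among those where it was lost were leaving out AT2 RNA library 2 (adjusted p = 0.0548) and the TPM scale (adjusted p = 0.0988).

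Across the 14 footprint and RNA libraries, centred within each assay, the 5 genes varied together, with Pearson r from 0.855 between mt-Co1 and mt-Nd5 to 0.971 between mt-Co1 and mt-Cytb. Of 6130 nuclear genes with enough counts, Reep6 (0.939), Cox7a2l (0.936), Tspan9 (0.932), Phactr2 (0.930) and Trak1 (0.927) were most like their mean. All of these points share the library sets and the 2 tissues, so the values are a description only.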

How the data were processed

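Ribosome footprints, RNA and translated ORFs were measured in LUAD and AT2 organoids. The authors' footprint and RNA tables give estimated counts and TPM per transcript, made with kallisto per the submitters' processing notes. The ORF lists deposited by the authors give whole counts of P-sites per frame, an RPKM per ORF and a combined p-value up to 0.05. The sources used here name no caller, and the build is mm10 per the labels. Kallisto shares reads between similar transcripts, so counts need not be whole.

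The ORF lists served to assign transcripts to genes (22509 transcripts, in 7384 listed genes of which 7266 were in the tables), and the estimated counts of a gene's transcripts were added up and rounded. Coordinates were checked against RefSeq and were the same. edgeR 4.0.16 in R 4.3.3 was used with TMM scaling, filterByExpr and a robust quasi-likelihood test, at a Benjamini-Hochberg adjusted p of 0.05 over all genes tested. All 5 mitochondrially encoded genes passed the filter on low counts in each comparison. Footprints per RNA were tested as the interaction between tissue and assay in a fit of 14 libraries, and footprints over RNA were contrasts in the same fit. CPM uses the TMM-scaled library size over paired genes, per assay. Per-library ratios add 0.5 CPM to each level, over nuclear genes with at least 1 RNA CPM. The tests were also run on simulated counts. DESeq2 1.42.0 and limma 3.58.1 on log2(TPM + 1) were alternatives.

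The members, lists and tests were chosen with earlier results of these data known. Named nuclear genes are taken from up to 2 per list, direction and comparison with the largest change past the test, and only part of them is described. The library sets were added after seeing the data. Nothing in the labels says that libraries came from separate cultures, so p-values cover the spread between these libraries alone, and that spread may be technical. In RNA, the deviations of same-numbered LUAD and AT2 libraries from their group means correlated weakly, at 0.188, 0.153 and 0.243 in the 3 pairs. Same-numbered RNA libraries also share a library set, so a pairing by number cannot be told apart from the sets. The labels name no pairing, and the reported tests used none. In footprints the correlations of same-numbered libraries differed in sign (0.372, -0.298 and 0.299). Between the assays, same-numbered footprint and RNA libraries correlated at 0.288, 0.373, 0.388 and 0.360 in LUAD. In AT2 they correlated at 0.139, -0.109 and 0.161. The reported tests of footprints against RNA treated the assays as unpaired, and the replicate block was an alternative.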

Additional observations from a re-analysis of the deposited data

How the results depend on the processing

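The lower footprints than RNA of mt-Nd1, mt-Co1, mt-Cytb and mt-Nd6 kept their direction and call in both tissues in every alternative that gave a p, and 4 or 5 of the 5 genes passed, or 3 with DESeq2. DESeq2 gave mt-Nd1 a value but no p in footprints per RNA and within either tissue. mt-Nd5 within AT2 turned to 0.062 in library set 1 alone. The share of RNA counts moved to 1.69% in LUAD and 2.33% in AT2 over all transcripts and to 1.61% in LUAD and 2.39% in AT2 of TPM, and on leaving out a library it ran from 2.18% to 2.66% in LUAD and 3.00% to 3.69% in AT2. At an ORF p under 0.001, 1 of 9 ORFs was left, and 6 to 8 without 1 ORF library.

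The number of genes lower in LUAD RNA was 1, and 0 to 1 on leaving out a library, 0 scaled on all transcripts, 2 with the replicate block, 2 on the TPM scale, 4 with the library set as a term and 5 in set 1 alone; mt-Nd6 RNA was 0.046 in set 2 alone. In footprints 1 gene was lower with the set as a term and 1 higher in set 2 alone, and leaving out a library gave 0 to 1 higher. In set 1 alone, with 1 AT2 footprint library, footprints of mt-Nd1, mt-Co1, mt-Cytb and mt-Nd5 lay from -2.21 to -1.495. In footprints per RNA 0 to 1 were higher on leaving out a library. In set 1 alone mt-Nd1, mt-Co1 and mt-Cytb stood at -1.60, -1.37 and -1.51 in footprints per RNA.

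Footprint differences turned to 0.61 (mt-Nd1), 0.80 (mt-Nd5) and 0.0094 (mt-Cytb) with the replicate block, and footprints per RNA to 1.03, 1.36 and 0.17 for the same genes. The footprint numbers did not pair in the check, and each LUAD footprint library correlated best with its own number in 1 of 3 pairs; in RNA 2 of 3 did. On the TPM scale footprints were 0.88 (mt-Nd1), 0.28 (mt-Cytb), 0.15 (mt-Nd6), 1.13 (mt-Nd5) and 0.043 (Mrpl2), and footprints per RNA 1.58 (mt-Nd1), 0.48 (mt-Co1), 0.73 (mt-Cytb), 0.64 (mt-Nd6) and 1.89 (mt-Nd5). The median of all genes on that scale was 0.61 in footprints and 0.61 in footprints per RNA. With library size alone mt-Nd5 footprints were 0.37 and footprints per RNA 0.24 (mt-Nd1), 0.10 (mt-Co1), 0.29 (mt-Nd6) and 0.86 (mt-Nd5). The median of all genes was then 0.47 in footprints and 0.39 in footprints per RNA. In set 2 alone footprints were 1.10 (mt-Nd1), 1.16 (mt-Nd5) and 0.022 (mt-Cytb), and footprints per RNA 1.79, 1.39 and 0.23; with the set as a term mt-Nd5 footprints per RNA were 0.91. On leaving out a library, footprints ran from -1.97 to 2.41 (mt-Nd1), -1.83 to 0.58 (mt-Co1), -1.14 to 1.956 (mt-Nd5), -1.27 to 0.37 (mt-Nd6) and -1.90 to 1.31 (mt-Cytb), and footprints per RNA from -1.33 to 3.05, -1.28 to 1.14, -0.59 to 2.47, -0.94 to 0.72 and -1.59 to 1.65. The cause of these changes was not tested.

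Among all genes the number past the test moved by about 1.5 times or more in some settings. In RNA 2572 became 1628 to 3355 on leaving out a library and 4050 in set 1 alone. In footprints 1448 became 841 to 1896 on leaving out a library, 977 on the TPM scale, 934 with the replicate block, 2870 with the set as a term, and 3571 and 2855 in the sets. In footprints per RNA 51 became 9 to 423 on leaving out a library, 9 on the TPM scale, 23 with library size alone, 77 with the replicate block, 373 with DESeq2, 518 with the set as a term, and 1010 and 696 in the sets. Scaling on all transcripts shifted the median of all genes to 0.27 in RNA (70.3% of calls higher, against 51.4%) and 0.35 in footprints (68.6%, against 44.5%), and gave 10.1% higher calls in footprints per RNA (against 39.2%), 31.3% in footprints over RNA within LUAD (against 50.4%) and 35.4% within AT2 (against 50.5%). With library size alone the shares were 77.6% in footprints and 69.6% in footprints per RNA. Depth limits mt-Nd1 most, at 24 and 19 counts in AT2 footprint libraries 2 and 3.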
